A study of Mus musculus with 8 samples.

Results

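Neuropeptide precursor genes encode the larger proteins from which neurons cut small signalling peptides. The 10 examined here were Penk, Pdyn, Tac1, Cartpt, Npy, Sst, Cck, Vip, Crh and Adcyap1, chosen by symbol from a deposited matrix of 23116 genes, and all 10 had a row. A precursor is trimmed by convertases and carboxypeptidases, packed into dense-core granules, and released to act on G protein-coupled receptors. In the visual thalamus several of these peptides are known from interneurons and from neighbouring ventral and reticular nuclei, and Cck is also made by glutamatergic neurons.

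The tissue was microdissected dorsal lateral geniculate nucleus, the part of the thalamus that passes retinal input to visual cortex, taken from C57BL/6J mice of both sexes under standard housing at postnatal day 27. Of the 8 mice, 4 are labelled Fn14 WT and 4 Fn14 KO, littermates with and without Fn14, the TWEAK receptor encoded by Tnfrsf12a. Each mouse gave its own ribosomal-RNA-depleted total RNA library, and the sources used here do not say which sex or litter a mouse came from, nor which exons the KO lacks. Levels are TPM, which corrects for transcript length and so allows levels of different genes to be compared, and read depth is unknown.

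Libraries did not all follow their labels or resemble each other. Tnfrsf12a was at 4.78, 5.48 and 3.67 TPM in WT 1 to WT 3, at 0.82 TPM in the library labelled WT 4, and at 2.95, 1.12, 1.32 and 1.86 TPM in KO 1 to KO 4. The library labelled WT 4 therefore lay below all 4 KO libraries, and its name below is only its label. The KO minus WT difference of Tnfrsf12a in log2(TPM + 1) was −0.63 (SE 0.43, limma as described below, adjusted p = 0.452). It did not pass, and it was −0.09 without WT 1 and WT 2. The level of the knocked-out gene thus did not separate the groups as labelled. Mbp, a main myelin protein gene, reached 11153 TPM in WT 1 and 13566 TPM in WT 2, whereas the other 6 libraries had 34.4 to 51.3 TPM. Summed over 16 young neuron markers, those 2 libraries had 2829 and 2866 TPM and the other 6 had 18757 to 22537 TPM, although all carry the same age label. The 17 thalamic relay neuron markers analysed were above 0 in every library, with sums of 1830 to 3183 TPM in 7 libraries and 822 TPM in WT 3. The split by Mbp was made from measured values, so it is described below and not tested.

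Short stretches of sequence show what the opioid members make and what some promoters share. Penk and Pdyn both carry the opioid core, the peptide start from which enkephalins and dynorphins take their action. In GENCODE M21 transcripts the longest open reading frame of Penk had 268 codons and held 7 cores preceded by a pair of basic residues, 6 of the Met type and 1 of the Leu type, while that of Pdyn had 248 codons and held 3, all of the Leu type. The first Met core and the Leu core of Penk and the first and second cores of Pdyn are shown, with the 5 enkephalin codons in capitals and the flanking basic codons in lower case where they occur.
Penk, Met core: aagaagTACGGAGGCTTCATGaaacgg
Penk, Leu core: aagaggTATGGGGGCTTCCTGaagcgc
Pdyn, first core: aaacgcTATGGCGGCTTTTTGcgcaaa
Pdyn, second core: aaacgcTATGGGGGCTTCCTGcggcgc

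Promoters were searched because several members were low in the same libraries. The cAMP response element, the DNA site of the activity-regulated factor CREB, was searched as TGACGTCA, which reads the same on both strands, and as its shorter part TGACGTC on either strand, which every full site also contains. Penk and Crh had no RefSeq promoter entry and were not searched. RefSeq promoters (GRCm38.p6, 250 bases before to 50 after the start) were found for the other 8 of the 10 genes. The full letters were in 2 of these, Sst and Cartpt, and the shorter letters in 4, with Vip and Adcyap1 added. Over all genes with a promoter in that table, 2.03% had the full and 3.6% the shorter letters in a promoter. The windows below lie upstream of the start, with the match in capitals.
Sst, chr16:23890855-23890922, minus strand: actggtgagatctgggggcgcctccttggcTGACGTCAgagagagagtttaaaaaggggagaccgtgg
Cartpt, chr13:99900758-99900825, minus strand: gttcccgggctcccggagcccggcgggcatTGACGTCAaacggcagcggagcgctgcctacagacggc
Vip, chr10:5639109-5639175, plus strand: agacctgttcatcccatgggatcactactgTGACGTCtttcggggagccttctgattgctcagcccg
Adcyap1, chr17:93198896-93198962, plus strand: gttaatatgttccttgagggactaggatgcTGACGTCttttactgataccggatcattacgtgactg
The match began 48 bases before the start in Sst, 112 in Cartpt, 79 in Vip and 91 in Adcyap1. A match is a run of letters and not a measured binding site. Genes with and without these letters were among those low in WT 1 and WT 2, as the values below show.

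Cck was the most abundant precursor on average, at 165 TPM over the 8 libraries, followed by Sst at 44.1, Tac1 at 26.7, Penk at 19.8, Npy at 14.1, Adcyap1 at 13.2, Pdyn at 11.4 and Cartpt at 6.42 TPM. Crh averaged 0.859 TPM and Vip 0.242 TPM. Neighbours from Sst down to Cartpt did not keep this order in every library, and their ranges over libraries overlapped. Cck led in 6 libraries, Sst in WT 3 and Tac1 in KO 3.

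As a share of the summed TPM of the 10 genes, Cck made up 92.8% in WT 1 and 85.2% in WT 2. It held 53.5% in the library labelled WT 4 and 42.2%, 45.2% and 59.6% in KO 1, KO 2 and KO 4. In WT 3 and KO 3 the Cck share was 4.61% and 4.18%, and Tac1 and Sst together took its place, with Tac1 at 29.0% and 32.4% and Sst at 29.4% and 28.1%. The sum itself ran from 181 TPM in KO 4 to 478 TPM in WT 1. Without Cck it ran from 34.6 TPM in WT 1 to 288 TPM in WT 3, so the library with the largest total had the smallest total of the other 9 genes.

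**Figure D1:**
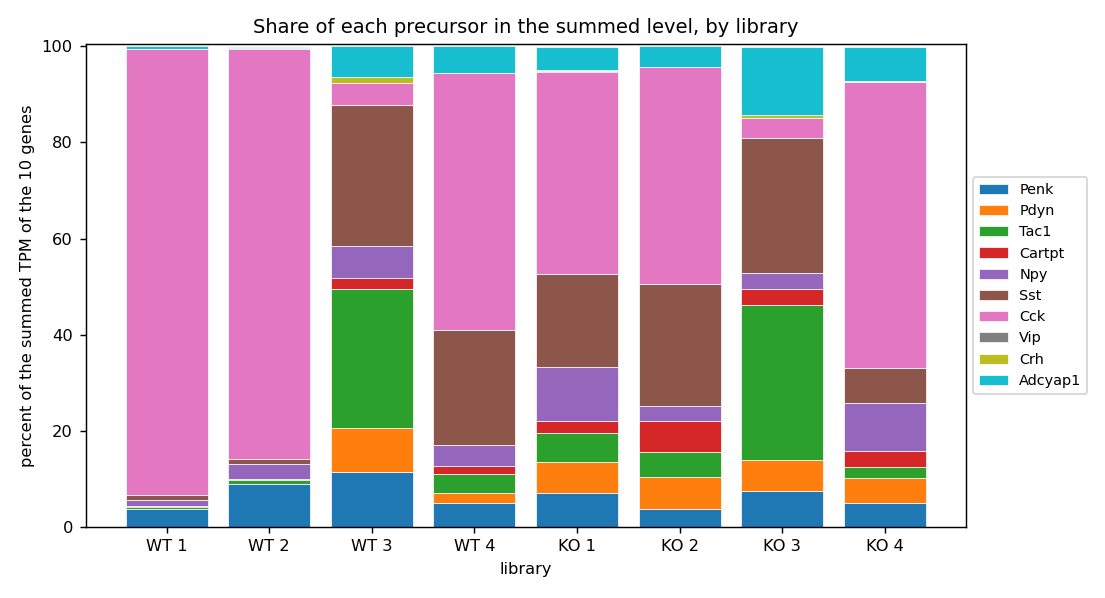
Share of each of the 10 precursors in their summed TPM (y axis, percent) in each library (x axis). Cck fills 92.8% and 85.2% of the bars of WT 1 and WT 2 and under 5% of those of WT 3 and KO 3, where Tac1 and Sst are the largest bands.

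Values by library are given next in the order WT 1, WT 2, WT 3, the library labelled WT 4, and then KO 1 to KO 4. KO was compared with WT by limma on log2(TPM + 1) over the 15967 genes averaging at least 1 TPM, and adjusted p are Benjamini-Hochberg values over all of them with a threshold of 0.05. Of the 10 genes 8 passed this filter, and Vip and Crh did not. None of the 8 passed the test in either direction (limma, adjusted p from 0.429 to 0.773), and 0 of all genes passed, a background of 0%. At an unadjusted p under 0.05, 1 of the 8 was called, higher in KO, beside 7.66% of all genes, of which 5.33% were higher and 2.33% lower. No member had WT and KO values free of overlap, against 3.34% of all genes. The differences of the 8 had a median of 0.93, with 6 above 0 and 2 below, beside a median of 0.10 over all genes tested. Without WT 1 and WT 2 the median of the 8 was 0.05.

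Among the opioid genes, Penk, on chromosome 4 (4133531 to 4138819, minus strand, GRCm38), encodes the enkephalin precursor. It was at 17.32, 40.44, 34.71 and 10.82 TPM in WT and at 17.58, 11.03, 17.72 and 9.02 TPM in KO. WT 2 and WT 3 were the high libraries, and the other WT values lay among the KO values. The WT mean was 25.8 ± 14.0 TPM and the KO mean 13.8 ± 4.48 TPM (SD, n = 4 each). The log2 difference was −0.73 (SE 0.42; limma, adjusted p = 0.429). By the annotation a noncoding transcript on the opposite strand, A830012C17Rik, overlaps the 5′ end of Penk, and since use of strand in the counting is not stated, reads of the 2 cannot be told apart there.

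Pdyn, on chromosome 2 (129686565 to 129699844, minus strand), encodes the dynorphin precursor. It was listed at 0 in WT 1 and WT 2, at 27.52 TPM in WT 3 and at 4.28 TPM in the library labelled WT 4, and KO libraries gave 15.66, 19.58, 15 and 9.30 TPM. WT values enclosed the whole KO range. The log2 difference was 2.14 (SE 1.01, 95% interval −0.18 to 4.45; limma, adjusted p = 0.429), and it was 0.33 without WT 1 and WT 2 and 3.13 without WT 3 and KO 3. The pair of opioid genes thus differed in WT 1 and WT 2, where Penk was at 17.32 and 40.44 TPM while Pdyn was listed at 0.

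Tac1, on chromosome 6 (7554879 to 7565834, plus strand), encodes the precursor of the tachykinins substance P and neurokinin A. Its values were 2.23, 3.68, 87.67 and 8.53 TPM in WT and 15.05, 15.49, 76.72 and 4.33 TPM in KO. WT 3 and KO 3 stood far above every other library. Over the 8 libraries the highest value was 39.3 times the lowest, and this spread lay inside both groups. The log2 difference of 0.78 (SE 1.14) did not pass (limma, adjusted p = 0.704), was −0.68 without WT 1 and WT 2 and 0.08 without KO 3.

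Adcyap1, on chromosome 17 (93199017 to 93206537, plus strand), encodes PACAP, a peptide of the secretin family. It was at 2.39, 1.16, 19.03 and 11.79 TPM in WT and at 11.95, 12.43, 33.91 and 13.04 TPM in KO. As for Tac1, KO 3 and WT 3 were the 2 highest libraries and WT 1 and WT 2 the 2 lowest. Apart from KO 3, the KO libraries lay between 11.95 and 13.04 TPM, just above the library labelled WT 4. The log2 difference was 1.38 (SE 0.73; limma, adjusted p = 0.429) and 0.09 without WT 1 and WT 2.

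Cartpt, on chromosome 13 (99898489 to 99901091, minus strand), encodes the CART peptide precursor. It was at 1.29, 0.89, 6.83 and 3.56 TPM in WT and at 5.97, 18.93, 7.75 and 6.12 TPM in KO. KO 2 was highest, and WT 3 was the only WT library inside the KO range. The WT mean was 3.1 ± 2.73 TPM and the KO mean 9.69 ± 6.21 TPM (SD, n = 4 each). Cartpt had the smallest p of the 8 genes tested, with a log2 difference of 1.45 (SE 0.53, 95% interval 0.24 to 2.66; limma, unadjusted p = 0.0243, adjusted p = 0.429). Without WT 1 and WT 2 the difference was 0.69.

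Sst, on chromosome 16 (23889573 to 23890958, minus strand), encodes somatostatin, an inhibitory peptide made by many GABAergic interneurons. WT libraries gave 4.91, 5.07, 89.00 and 51.57 TPM and KO libraries 47.91, 74.95, 66.61 and 13.04 TPM. WT 1 and WT 2 were lowest and nearly equal, KO 4 was the next, and the remaining 5 lay between 47.91 and 89.00 TPM. The log2 difference of 1.09 (SE 1.00; limma, adjusted p = 0.540) turned to −0.67 without WT 1 and WT 2 and was 1.6 without WT 3 and KO 3.

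Npy, on chromosome 6 (49822710 to 49829507, plus strand), encodes neuropeptide Y, often made by GABAergic neurons too. It was at 6.12, 14.63, 19.99 and 9.43 TPM in WT and at 27.77, 8.95, 7.85 and 17.90 TPM in KO. Neither group nor the Mbp split ordered these values, and Npy and Penk had the smallest spread of the 8 genes tested, with an SD of log2(TPM + 1) over the 8 libraries of 0.70 and 0.74. The log2 difference was 0.24 (SE 0.46, 95% interval −0.82 to 1.31; limma, adjusted p = 0.773).

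Cck, on chromosome 9 (121489824 to 121495694, minus strand), encodes cholecystokinin. Its values were 443.16, 389.24, 13.94 and 115.43 TPM in WT and 104.37, 133.01, 9.90 and 108.01 TPM in KO. These formed 3 levels: WT 1 and WT 2 highest, WT 3 and KO 3 lowest, and the other 4 libraries between 104.37 and 133.01 TPM whichever their label. The highest value was 44.8 times the lowest. The log2 difference was −1.04 (SE 1.21; limma, adjusted p = 0.629), −0.19 without KO 3, and 0.62, the other sign, without WT 1 and WT 2.

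The least abundant members were Vip and Crh. Vip, on chromosome 10 (5639218 to 5647617, plus strand), encodes vasoactive intestinal peptide, and it had 0.34 and 1.04 TPM in WT 1 and WT 2. It was listed at 0 in WT 3 and the library labelled WT 4, and KO libraries gave 0.20, 0.15, 0.09 and 0.12 TPM. Crh, on chromosome 3 (19693401 to 19695396, minus strand), encodes corticotropin-releasing hormone, and WT 3 was its highest library at 3.74 TPM. The other 7 ran from 0 in WT 1 and KO 2 to 1.16 TPM in KO 3. At such levels, with depth unknown, no difference between groups was tested.

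**Figure D2:**
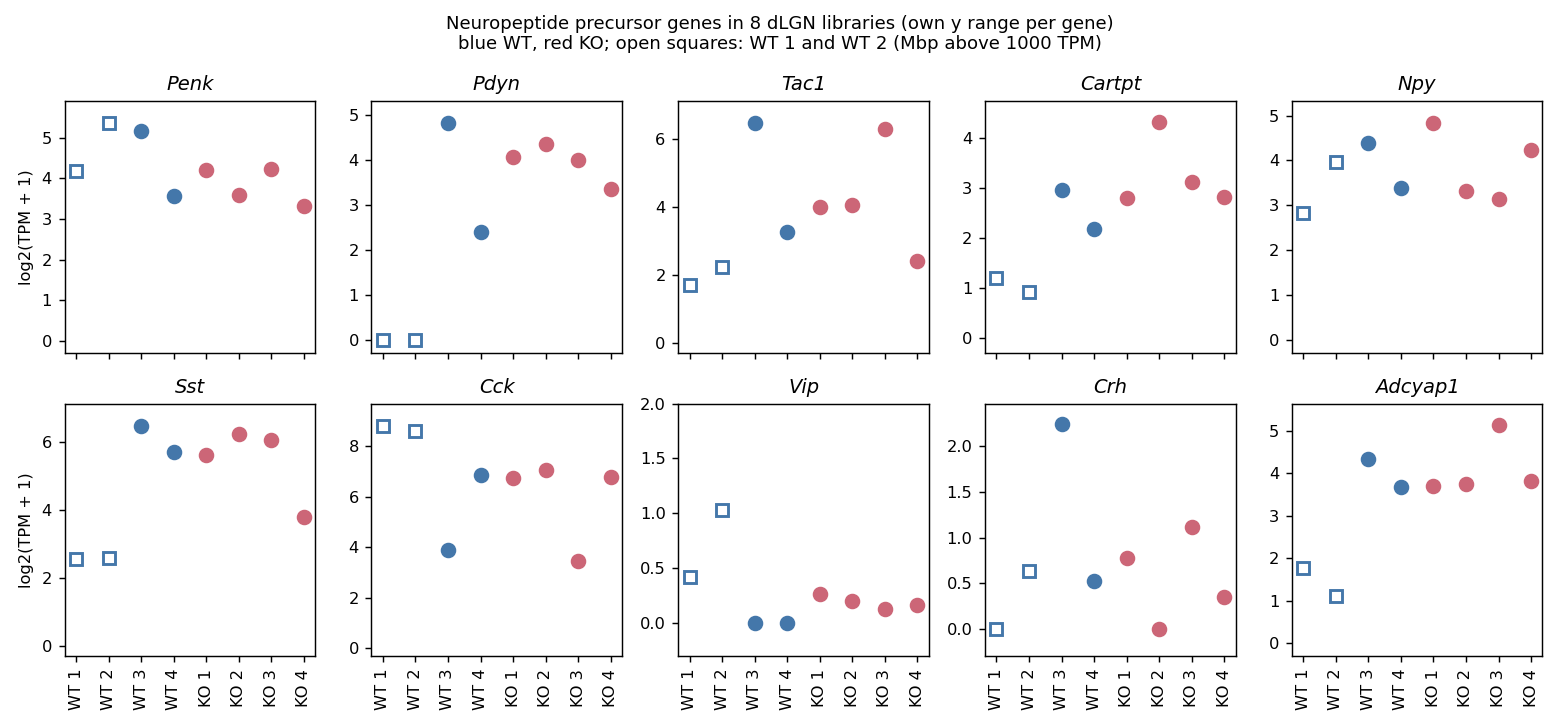
Level of each precursor as log2(TPM + 1) (y axis, own range per gene) in each library (x axis, blue WT, red KO, open squares for WT 1 and WT 2). Pdyn, Tac1, Cartpt, Sst and Adcyap1 are lowest in the open squares, Cck is highest there, and Tac1 is highest in WT 3 and KO 3, where Cck is lowest.

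**Figure D3:**
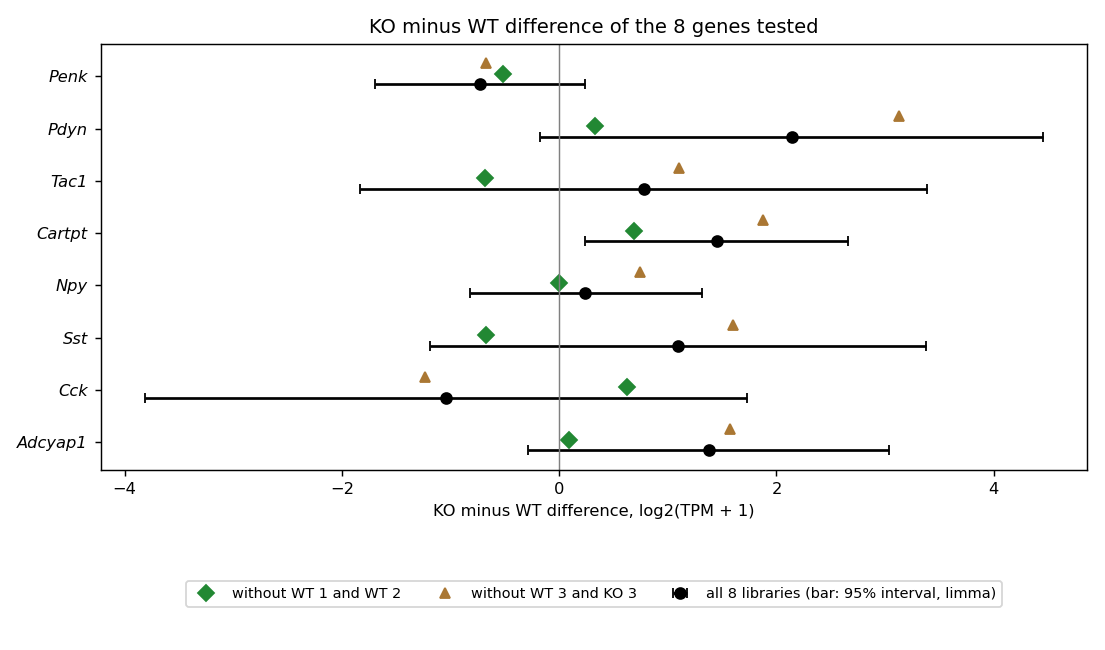
KO minus WT difference in log2(TPM + 1) (x axis) for the 8 genes tested, with the 95% limma interval over all 8 libraries (black), and the value without WT 1 and WT 2 (green) and without WT 3 and KO 3 (brown). Only the interval of Cartpt leaves out 0, and the green points of Tac1, Sst and Cck lie on the other side of 0 from the black ones, with that of Npy at 0.

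The library pattern of the members was read against the share of all genes that show it. WT 1 and WT 2 both lay below the other 6 libraries for 5 of the 8 genes tested, Pdyn, Tac1, Cartpt, Sst and Adcyap1, where 40.5% of all genes did. They both lay above for 1 of the 8, Cck, where 22.5% of all genes did. Penk and Npy fell within. The split thus ran through much of the transcriptome, and the members' counts are no result about these genes alone. WT 3 was the highest library for 3 of the 8, Pdyn, Tac1 and Sst, against 19.5% of all genes. WT 3 and KO 3 were the 2 highest for Tac1 and Adcyap1, against 8.87% of all genes, and the 2 lowest for Cck, against 3.66%. These last patterns were defined with the values in view.

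Marker genes of other regions and cells moved with these libraries. Summed over 23 markers of habenula, hypothalamus and nearby regions, WT 3 had 438 TPM and KO 3 had 410 TPM. The other KO libraries had 196 to 271 TPM, with 207 TPM in the library labelled WT 4, and 49.3 and 57.2 TPM in WT 1 and WT 2. WT 3 was highest for 9 and KO 3 for 4 of the 23, and each had 2 listed at 0. Of all genes tested 19.5% were highest in WT 3, and the share for KO 3 was not counted. The list mixes regions, and 5 of its genes are named here by their values. Otp and Nkx2-1, transcription factors of the hypothalamus, were at 65.64 and 62.04 TPM in WT 3 and at no more than 3.30 and 8.38 TPM in the others. Lmx1a, expressed in the subthalamic region, was highest in KO 3 at 25.97 TPM, followed by WT 3 at 15.60 TPM, and stayed at or below 2.29 TPM elsewhere. The 2 habenula genes among these 5 did not follow the sum, and the other habenula genes of the list are not described here. Gpr151, a receptor gene of habenular neurons, was lowest in KO 3 at 2.88 TPM and highest in KO 4 at 40.53 TPM, with 9.78 TPM in WT 3. Gng8, a G protein subunit gene of the habenula, had 10.19 to 11.77 TPM in KO 1, KO 2 and KO 4, and only 2.37 TPM in WT 3 and 4.62 TPM in KO 3. The sum of the 29 GABAergic neuron markers ran from 895 to 1213 TPM in WT and from 666 to 1342 TPM in KO, with KO 3 and WT 3 highest, and at most 2 of the 29 were listed at 0 in any library. Their part in the high Tac1, Adcyap1, Pdyn and Sst values was not tested. Cortical and hippocampal neuron markers summed to 1442 TPM in KO 1, the library with most Npy, and to 605 to 1162 TPM elsewhere. KO 1 was highest for 14 of these 22 markers, and the share of all genes highest in KO 1 was not counted. In WT 1 and WT 2, the libraries with most Cck, 9 myelin and mature oligodendrocyte markers summed to 27767 and 34873 TPM, against 125 to 156 TPM, and 10 astrocyte markers to 3643 and 3507 TPM, against 632 to 1175 TPM. Neuronal genes followed the 3 levels of Cck too, 2 of which are named here by their values. Slc17a7, a vesicular glutamate transporter gene on the cortical and hippocampal list, had 524 and 411 TPM in WT 1 and WT 2, only 0.86 and 2.93 TPM in WT 3 and KO 3, and 7.34 to 36.05 TPM in the other 4. Synpo2, on the relay neuron list, had 115.62 and 101.08 TPM, then 1.70 and 1.33 TPM, and 6.49 to 19.10 TPM in the same order. The summed relay markers were lowest in WT 3 and next lowest in KO 3, where Cck was lowest. At the high end of Cck their sum did not follow it. WT 1 and WT 2 had 3072 and 2672 TPM of relay markers, within the 2066 to 3183 TPM of the other 4. The part of these in the Npy and Cck values was not tested either. In bulk tissue, fewer cells of a type and less RNA per cell cannot be told apart.

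Other precursors, fixed as a companion list, also varied by library. WT 3 was the highest library for 17 of 45, beside 19.5% of all genes tested. KO 3 was highest for 9, and the share of all genes highest there was not counted. The 45 include genes averaging under 1 TPM, and 25 of them were tested. Avp, the vasopressin precursor of hypothalamic neurons, reached 376 TPM in WT 3 and 8.86 TPM or less in the other 7 libraries, and Pmch, the melanin-concentrating hormone precursor of the lateral hypothalamus, reached 202 TPM in WT 3 and 0.20 to 22.40 TPM in the others. Hcrt, the orexin precursor, named after its values were seen, had 25.09 TPM in WT 3 and 4.41 TPM or less in the others. Nts, the neurotensin precursor, was highest in KO 3 at 47.35 TPM, with WT 3 second at 10.96 TPM. Pnoc, the precursor of the opioid-like peptide nociceptin, was more even, from 8.01 to 21.65 TPM over the 8 libraries.

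Of these 45 other precursors 25 were tested, and none passed in either direction, with 16 above and 9 below 0. The median difference was 0.19, beside 0.10 over all genes tested, and it was 0.02 without WT 1 and WT 2. Grp, the gastrin-releasing peptide precursor, had the smallest p of the list. It was listed at 0 in WT 1 and at 1.54, 3.55 and 2.75 TPM in WT 2, WT 3 and the library labelled WT 4, and KO libraries gave 13.43, 8.53, 5.77 and 5.87 TPM. All KO libraries therefore lay above all WT libraries. Its log2 difference was 1.80 (SE 0.50; limma, adjusted p = 0.429), which did not pass, and 1.11 without WT 1 and WT 2. Apln, the apelin precursor, had 46.43 and 44.50 TPM in WT 1 and WT 2 and 1.76 to 4.85 TPM in the other 6 libraries.

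**Figure D4:**
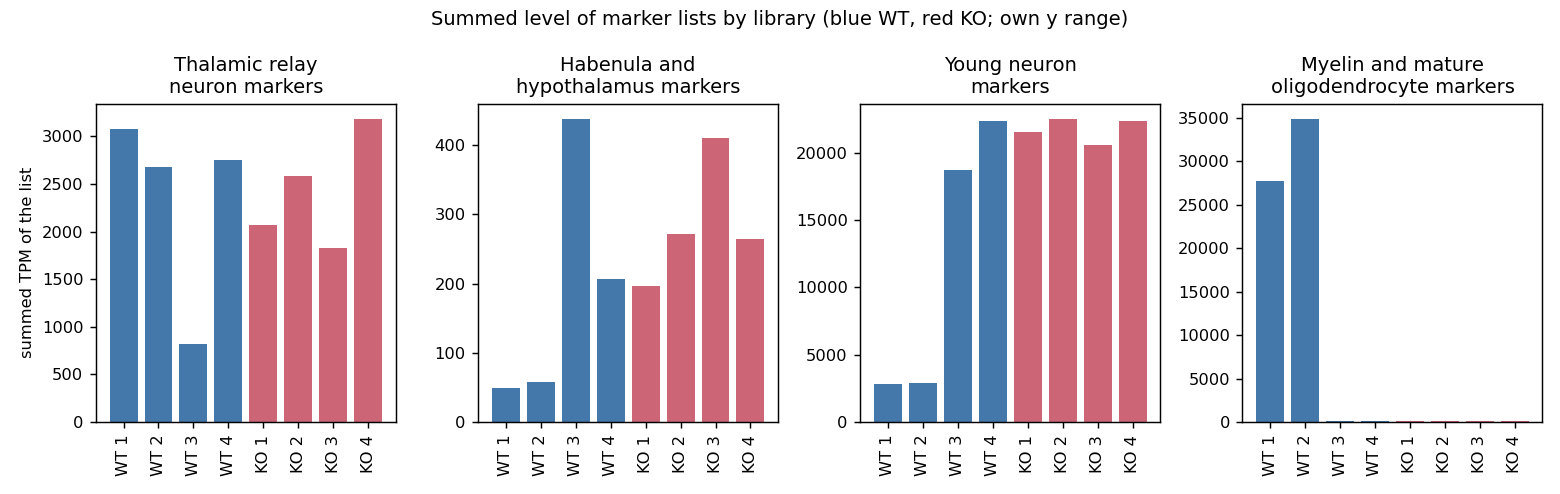
Summed TPM (y axis, own range) of 4 marker lists in each library (x axis, blue WT, red KO). WT 3 has the lowest sum of thalamic relay markers at 822 TPM and the highest of habenula and hypothalamus markers at 438 TPM, and WT 1 and WT 2 differ from the other 6 in young neuron and myelin markers.

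Receptors of the member peptides summed to 159 to 365 TPM per library, with WT 3 highest. Of 22 receptor genes 21 were analysed, 1 of them, Npy4r, under its older symbol Ppyr1, and 16 were tested. None passed, with 13 above and 3 below 0, beside 9604 above and 6363 below over all genes tested. The median difference was 0.32, beside 0.1 over all genes tested, and it was −0.12 without WT 1 and WT 2. Adcyap1r1, the PACAP receptor, was by far the highest, at 92.66 to 186.60 TPM, and it averaged 128 ± 40.8 TPM in WT, 135 ± 31.2 in KO (SD, n = 4 each). Its log2 difference was 0.10 (SE 0.25; limma, adjusted p = 0.832). WT 3 and KO 3, the libraries with most Adcyap1, also had most Adcyap1r1, at 186.60 and 176.18 TPM.

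Npy1r, a neuropeptide Y receptor, had the smallest p of the receptors. It was at 30.54, 35.78, 21.92 and 24.84 TPM in WT and at 17.41, 22.64, 21.11 and 20.75 TPM in KO. WT 3 lay inside the KO range and the other WT libraries above it. The log2 difference was −0.43 (SE 0.18; limma, adjusted p = 0.429), and −0.19 without WT 1 and WT 2. Npy5r was below 0 as well, at −0.38 (SE 0.30), while Npy2r reached 7.24 TPM in WT 3 and 4.75 TPM in KO 1 and stayed at or below 1.43 TPM elsewhere.

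Opioid receptor genes were low. Oprk1, the dynorphin receptor, had 1.39 and 2.43 TPM in WT 1 and WT 2, where Pdyn was listed at 0, and 4.6 to 20.45 TPM in the other 6 libraries, with KO 1 highest. Its log2 difference was 1.1 (SE 0.55, limma, adjusted p = 0.429), and 0.33 without WT 1 and WT 2. Oprm1, the mu receptor, had 11.89 TPM in WT 3 and 0.65 to 6.95 TPM in the others, and Oprd1, the delta receptor, stayed at or below 5.65 TPM.

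The somatostatin receptors split. Sstr1 reached 40.88 TPM in WT 3 and 37.32 TPM in KO 3 and at 4.77 to 12.27 TPM in the other 6, the same 2 libraries in which Tac1 was high. Sstr2 was highest in KO 1 at 30.63 TPM. Sstr4 had 0.63 and 2.71 TPM in WT 1 and WT 2 and 6.52 to 20.28 TPM in the others. The log2 difference of Sstr4 was 1.39 (SE 0.68, limma, adjusted p = 0.429), and 0.27 without WT 1 and WT 2. Sstr3 went the other way, with 3.71 and 3.92 TPM in WT 1 and WT 2 and 0.77 to 1.76 TPM in the others.

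Among receptors for the remaining peptides, Cckbr, the brain cholecystokinin receptor, had 0.07 and 0.86 TPM in WT 1 and WT 2, the libraries with most Cck, and 17.97 TPM in WT 3, where Cck was low. The other 5 libraries had 2.99 to 5.79 TPM. The substance P receptor Tacr1 ran from 3.44 to 8.74 TPM and Tacr3 from 1.18 to 8.67 TPM, each with KO 3 highest. Crhr1, a corticotropin-releasing hormone receptor, was at 9.15 to 41.28 TPM, although Crh itself did not exceed 3.74 TPM. Tacr2, Npy4r, Cckar, Vipr1 and Crhr2 averaged under 1 TPM and were not tested.

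**Figure D5:**
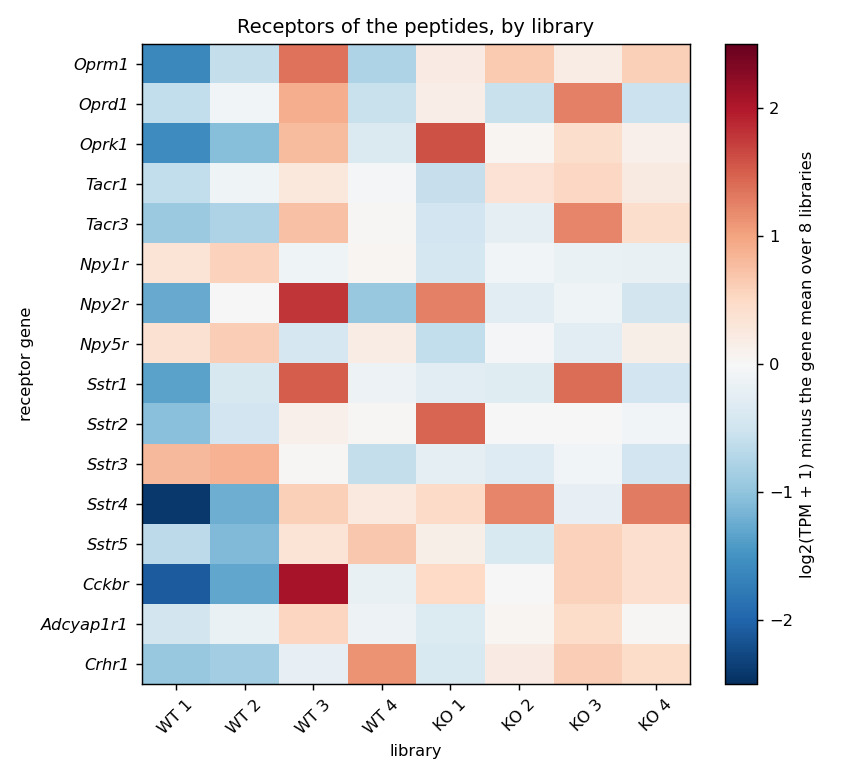
Level of 16 receptor genes (rows) in each library (columns) as log2(TPM + 1) minus the mean of the gene over the 8 libraries (colour, red above and blue below the mean). WT 1 and WT 2 are lowest for Oprk1, Sstr4 and Cckbr and highest for Npy1r, Npy5r and Sstr3, and WT 3 and KO 3 are highest for Sstr1.

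Processing and granule genes were far more abundant than the precursors, with sums of 2142 to 5762 TPM against 181 to 478 TPM. Of 23 genes 22 were analysed and 21 tested, with 4 above and 17 below 0, none of which passed, and a median difference of −0.35, or −0.05 without WT 1 and WT 2. WT 1 and WT 2 both lay above the other 6 libraries for 13 of the 21, where 22.5% of all genes did. Cpe, the carboxypeptidase that trims most neuropeptides, had 3019 and 2937 TPM in WT 1 and WT 2 and 735 to 1515 TPM in the others. Pcsk1n, an inhibitor of convertase PC1, was at 141.14 to 287.95 TPM, and the granin gene Scg2 was at 55.68 TPM in KO 1 and 185.80 to 278.08 TPM in the other 7.

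The smallest p of the processing and granule genes belonged to Cadps2, a granule priming factor. It was at 8.02, 17.41, 22.93 and 15.15 TPM in WT and at 40.55, 32.43, 25.23 and 31.09 TPM in KO, all KO libraries above all WT libraries. The log2 difference of 1.05 (SE 0.30; limma, adjusted p = 0.429) did not pass and was 0.74 without WT 1 and WT 2. Scg5, which encodes the PC2 chaperone 7B2, had all KO libraries below all WT libraries, averaging 220 ± 55.9 TPM against 139 ± 11.6 TPM (SD, n = 4 each), with a log2 difference of −0.62 (SE 0.20; limma, adjusted p = 0.429). Pam, which amidates peptide ends, stood at −0.77 (SE 0.30, same adjusted p). In this list 2 of 21 genes, Cadps2 and Scg5, had groups without overlap, beside 3.34% of all genes.

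Immediate early genes, a list of genes induced by activity, gave 5 of 16 tested above and 11 below 0, with none passing. Their median difference was −0.27, and 0.33 without WT 1 and WT 2. Dusp1, a phosphatase gene induced by activity, had 85.80 and 86.95 TPM in WT 1 and WT 2 and 14.61 to 23.73 TPM in the other 6. Jun, a component of the AP-1 factor, was at 87.13 and 86.19 TPM against 34.65 to 55.90 TPM. WT 1 and WT 2 both lay above the other 6 libraries for 7 of the 16 and below for 2, where 22.5% and 40.5% of all genes did. Those below were Inhba, which encodes an activin subunit, and Bdnf, a neurotrophin gene, the 2 of smallest p in the list.

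Inhba was at 0.57, 1.79, 3.35 and 1.89 TPM in WT and at 7.18, 13.62, 4.26 and 7.96 TPM in KO. Bdnf was at 3.81, 3.95, 8.10 and 8.26 TPM in WT and at 10.29, 12.09, 13.47 and 12.51 TPM in KO. All KO libraries lay above all WT libraries for both, the only 2 of the 16 without overlap, beside 3.34% of all genes. Their log2 differences were 1.67 (SE 0.40) and 0.96 (SE 0.28), neither of which passed (limma, adjusted p = 0.429 for both). Of the members with the shorter response element letters, Sst, Cartpt and Adcyap1 were lowest in WT 1 and WT 2. So were Pdyn and Tac1, whose promoters lacked the letters, and Inhba, Bdnf and 40.5% of all genes. Vip, at only 0.34 and 1.04 TPM and not tested, was highest there, as were Dusp1, Jun and 22.5% of all genes. A link between the letters and these genes was not tested.

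For each member whose log2(TPM + 1) had an SD of at least 1 over the 8 libraries, the closest other genes were sought by the root mean square difference of the 2 profiles after removing each gene's mean. The nearest to Pdyn were Dlx1, a transcription factor of GABAergic neurons, at 0.41 log2 units, and Cnr1, the cannabinoid receptor, at 0.45. Tac1 was nearest to Foxa1, a transcription factor of midbrain dopamine neurons, at 0.54, and to Six3 at 0.58, and Foxa1 was at 26.73 and 25.63 TPM in WT 3 and KO 3 and 3.33 TPM or less in the others. Sst was nearest to Pcdh8 and Cdh9, adhesion genes of the cadherin superfamily, both at 0.56. Cck was nearest to Grid2ip at 0.58 and Vav3 at 0.60, Cartpt to Lypd6b at 0.32 and Rspo2 at 0.35, and Adcyap1 to Nxnl2 at 0.24 and Gm1653 at 0.27. These distances compare with member SDs of 1.1 for Cartpt to 1.94 for Cck. They describe 8 libraries in which the split by Mbp and the pattern of WT 3 and KO 3 are shared by many genes.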

How the data were processed

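The authors deposited 1 gene matrix in TPM, with their mean per group beside the 8 libraries. Tools named are BWA and edgeR (3.14.0), and builds GRCm38 and mm10, per the submitters' processing notes, without settings. Each mouse was a separate replicate, per the labels' protocols. The 8 columns hold 23116 genes, with 16983 to 18756 above 0 per library. Depth is unknown, so no counting interval or floor is given.

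Before testing, 1 TPM was added and log2 taken, so changes of low genes are understated. The 15967 genes averaging at least 1 TPM were compared, KO minus WT, with limma 3.58.1 in R 4.3.3 (trend and robust, two-sided, no covariate), which was tested on simulated data. Positions came from GENCODE M21 (GRCm38) and promoters from RefSeq (GRCm38.p6). Figures used matplotlib 3.10.9.

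The members and lists were chosen with earlier results of these data known. Genes named are the members, their receptors, up to 3 genes of smallest p and up to 3 of highest mean per list, and the closest profiles. Not all genes that the rule allows are printed, and others are said to be chosen after their values were seen. Alternatives were other pseudocounts, filters, scalings and variance models, array weights, a replicate block, and leaving out libraries. Nothing beyond the number is stated to link same-numbered WT and KO libraries.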

Additional observations from a re-analysis of the deposited data

Results flagged for a closer look

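Within each group of 4 libraries, a value was marked where its gap to the nearest other library was a larger part of the group's range than Dixon's 95% critical value allows. Chance marks about 1 in 20 groups where values are normally distributed, which was not checked for TPM. For the 10 genes 20 groups of 4 were checked, of which 6 held a marked value, each a high one. All genes share the same 8 libraries, so the groups are not independent and the count of 6 does not measure an excess over chance. WT 3 stood above the other WT libraries for Tac1 at 87.67 TPM (next 8.53), Pdyn at 27.52 TPM (next 4.28) and Crh at 3.74 TPM (next 0.55). KO 3 stood above the other KO libraries for Tac1 at 76.72 TPM (next 15.49) and Adcyap1 at 33.91 TPM (next 13.04). KO 2 stood above the other KO libraries for Cartpt at 18.93 TPM (next 7.75). The marker sums of WT 3 and KO 3 stand beside these genes in the results, and their part was not tested.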

How the results depend on the processing

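Of 152 refits of the 8 members' differences, 138 kept their direction and did not pass, 7 passed and 7 reversed. The 7 that passed were all with array weights, which gave WT 3 a weight of 0.13 and the library labelled WT 4 0.138, and under which 10376 of all genes, 7 of the 8 members (not Npy, at −0.0053) and 48 genes of the companion lists passed. Without WT 1 and WT 2 the reversed values were −0.676 for Tac1, −0.667 for Sst, 0.618 for Cck and −0.00035 for Npy, and 2 genes passed, the microRNA genes Mir135a-2 and Mir199a-2. With a plain variance model 1 gene passed, Snora62, and without WT 3 and KO 3, an alternative chosen after seeing the data, 1 passed, Hist1h4j. Leaving out 1 library at a time gave 0 to 1 genes in all (Mir666, without KO 3) and 0 members, and differences from −0.0762 to 0.493 for Npy, 0.0772 to 1.8 for Tac1 and −2.09 to −0.191 for Cck. The 5 non-member genes are named because they passed. The smallest adjusted p of a member on leaving out 1 library was 0.161, for Penk without the library labelled WT 4.

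With the replicate number as a block, 0 genes passed, and same-numbered libraries deviated together with correlations of −0.0998 to 0.074, so the numbers gave no sign of pairing. The median difference of all genes was 0.102, −0.0117 with trimmed-mean factors and 0.0021 after quantile normalization. No library lay between 100 and 1000 TPM of Mbp, so no other Mbp split was tried. Depth is unknown, so low values such as those of Vip and Crh have no error from counting. Within-group spread limits what 4 against 4 mice can show: the 95% interval of Cck ran from −3.81 to 1.73.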
